A study of Arabidopsis thaliana with 6 samples.

Results

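The berberine bridge enzyme-like genes of Arabidopsis thaliana were followed in seedlings in which a PLETHORA transcription factor was switched on. The genes were listed as 10 loci. They comprise the chromosome 5 run AT5G44360, AT5G44380, AT5G44390, AT5G44400, AT5G44410 and AT5G44440, the chromosome 4 loci AT4G20830, AT4G20840 and AT4G20860, and AT2G34790 on chromosome 2. Of these, 8 had a probe set of their own among the 17504 probe sets paired with a gene, and AT4G20840 and AT2G34790 were not analysed here. The list was chosen by locus with the dexamethasone and mock values of these arrays already known. For these 8 genes the fit over all probe sets therefore serves only to describe the size and error of each difference and whether it lay past the threshold used for all probe sets. Their calls are not evidence of a response of the family.

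All 6 arrays carried RNA of whole seedlings of 1 line, 35S::PLT2-GR, in which the 35S promoter, active in most plant cells, drives the AP2-domain factor PLT2 joined to the steroid-binding part of the glucocorticoid receptor. Both groups carried this transgene. Seedlings were 4 days old when they went into flasks of about 50 in 50 ml of liquid medium, and after a night there 3 flasks received 10 µM dexamethasone and 3 received the solvent DMSO (mock), for 6 h. Dexamethasone-treated seedlings without the fusion were not analysed here, so effects of the steroid and of the fusion cannot be told apart.

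Berberine bridge enzyme-like proteins are oxidases that carry a covalently bound flavin (FAD), and most are sent to the cell wall. The family is named after the enzyme of California poppy that closes the berberine bridge in alkaloid synthesis, a pathway Arabidopsis lacks. In Arabidopsis, several characterised members oxidise wall-derived sugars or lignin precursors. AT4G20830 (OGOX1) and AT4G20840 (OGOX2) oxidise oligogalacturonides, the pectin fragments that plants sense as a sign of wall damage. AT4G20860 (CELLOX) oxidises cellulose fragments, and AT2G34790 oxidises monolignols, the building blocks of lignin. Oxidised fragments of this kind are weaker elicitors of defence than the intact ones.

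The values are log2 probe set values as deposited, so a difference of 1 is a 2-fold change. Across probe sets with a gene the array medians ran from 5.44 to 5.53 and the first quartiles from 2.78 to 3.02. Below the first quartile a value is called dim here, since signal over background was not analysed and a difference between dim values is approximate. By limma, 3252 probe sets (18.6%) passed an adjusted p of 0.05, with 1670 (9.54%) lower and 1582 (9.04%) higher with dexamethasone. Transcripts of both shoot and root were measured. For each, 1 gene was picked by hand and no marker list was used. Both genes had lower values with dexamethasone. The leaf gene RCA ranged from 11.11 to 11.20 with mock and from 10.75 to 10.90 with dexamethasone. The root hair gene EXPA7 ranged from 6.03 to 6.40 with mock and from 4.74 to 5.21 with dexamethasone. The part of leaf or root hair cells in the differences described here was not tested. In whole seedlings, fewer cells of a type and less RNA per cell cannot be told apart.

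With dexamethasone, 5 of the 8 genes were lower and past the threshold, and none was higher and past it. Over all probe sets, 9.54% were lower and past it and 9.04% were higher and past it. The median log2 difference of the 8 was -0.52, against 0.02 over all 17504 probe sets. For 5 of the 8, each dexamethasone array lay below each mock array, which holds for 18.8% of all probe sets. These shares come from the contrast known when the list was made, so nothing is read from their distance to the background. The 5 genes were AT5G44380, AT5G44390 and AT5G44400 of the chromosome 5 run and AT4G20830 and AT4G20860 on chromosome 4. AT5G44360, AT5G44410 and AT5G44440 did not pass.

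**Figure D1:**
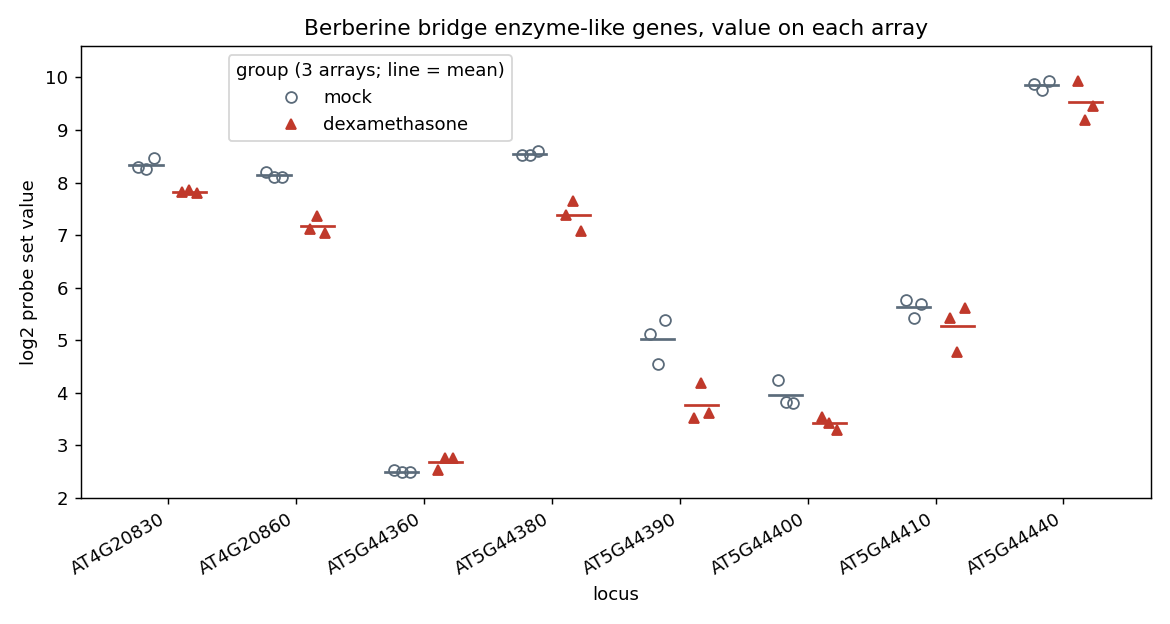
Log2 probe set value of the 8 measured genes on each of the 6 arrays, with open circles for mock, filled triangles for dexamethasone and a line at each group's mean. The 2 groups do not overlap for AT4G20830, AT4G20860, AT5G44380, AT5G44390 and AT5G44400, where dexamethasone is lower, nor for the dim AT5G44360, where it is slightly higher.

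Of the oligosaccharide oxidases, AT4G20860, the oxidase of cellulose fragments, had log2 values of 8.21, 8.11 and 8.10 in mock replicates 1 to 3 and of 7.11, 7.37 and 7.05 in dexamethasone replicates 1 to 3. The mock arrays lie within a narrow band and all 3 dexamethasone arrays lie well under it. The gene was 1.95-fold lower (log2 difference -0.96, SE 0.11), with a 95% interval of the fold from 1.62 to 2.34. AT4G20830, the oxidase of pectin fragments, had values of 8.29, 8.27 and 8.47 with mock and 7.83, 7.85 and 7.80 with dexamethasone. Its 3 dexamethasone arrays nearly coincide (SD 0.02, n = 3), against an SD of 0.11 in mock. It was 1.43-fold lower (log2 difference -0.51, SE 0.09), a smaller difference than that of AT4G20860, and the 95% intervals of both log2 differences, -0.74 to -0.29 and -1.22 to -0.70, overlap slightly. In the TAIR10.1 annotation AT4G20835 overlaps AT4G20830, and FAH2 overlaps the edge of AT4G20860. Whether the probes separate overlapping genes was not checked.

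On chromosome 5, AT5G44380 had values of 8.52, 8.53 and 8.61 with mock and of 7.39, 7.66 and 7.08 with dexamethasone. The mock arrays agree closely (SD 0.05, n = 3), and the dexamethasone arrays spread more (SD 0.29, n = 3) but remain below them. The gene was 2.25-fold lower (log2 difference -1.17, SE 0.15), with a 95% interval from 1.76 to 2.88. AT5G44390, its neighbour, had 5.11, 4.55 and 5.40 with mock and 3.53, 4.19 and 3.62 with dexamethasone. It had the largest difference of the 8 genes, 2.37-fold lower (log2 difference -1.24, SE 0.26), and also the widest 95% interval, from 1.56 to 3.59. The gap between its lowest mock array and its highest dexamethasone array was 0.37. Its call was lost without mock replicate 1 or 3 and without dexamethasone replicate 1 or 3, when the log2 difference ran from -1.20 to -1.06. With the replicate number as a block it was lost too.

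AT5G44400, the next gene along, had values of 4.24, 3.82 and 3.81 with mock and 3.54, 3.43 and 3.29 with dexamethasone. The groups are close but do not overlap. The gene was 1.45-fold lower (log2 difference -0.53, SE 0.14), and its call was lost when any single array was left out, with log2 differences from -0.61 to -0.39. AT5G44410 had 5.77, 5.43 and 5.69 with mock and 5.43, 4.77 and 5.61 with dexamethasone. Here the groups overlap, and 1 low array, dexamethasone replicate 2, carries most of the log2 difference of -0.36 (95% interval -0.88 to 0.16). Without that array the log2 difference was -0.11.

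AT5G44440, whose protein has a solved crystal structure, had values of 9.87, 9.77 and 9.94 with mock and 9.93, 9.19 and 9.45 with dexamethasone. Dexamethasone replicate 1 sits at the mock level and the other two lie below it. The log2 difference was -0.33 with a 95% interval from -0.77 to 0.10, so a fall of up to 1.70-fold lies within the interval. Without dexamethasone replicate 1 the log2 difference was -0.54 and passed the threshold, while without dexamethasone replicate 2 it was -0.17. AT5G44360, the first gene of the run, had 2.53, 2.49 and 2.49 with mock and 2.54, 2.76 and 2.76 with dexamethasone. All 6 values are dim, and the log2 difference of 0.18 (95% interval -0.05 to 0.41) did not pass.

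Among the dexamethasone arrays the 8 genes did not share 1 order. Dexamethasone replicate 2 had the highest value of its group for AT5G44380, AT5G44390, AT4G20860, AT4G20830 and AT5G44360. The same array had the lowest value of the group for AT5G44410 and AT5G44440. It lay between the other two for AT5G44400.

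The order of the genes in TAIR10.1 shows where the lower values lie. AT5G44380, AT5G44390, AT5G44400 and AT5G44410 follow each other with no other annotated gene between them, and their log2 differences were -1.17, -1.24, -0.53 and -0.36. PHT4;6 and a tRNA gene separate AT5G44360 from them. On the other side, 4 pseudogenes and the defensin genes PDF1.2 and PDF1.2c lie between AT5G44410 and AT5G44440. PDF1.2, a defensin gene of the jasmonate and ethylene response, had a log2 difference of 0.26 (limma adjusted p 0.412), and PDF1.2c had -0.40 (adjusted p 0.334). Both had overlapping groups and mock means of 2.35 and 2.80, within or close to the dim range.

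Among the other neighbours on chromosome 5, AT5G44450 had a log2 difference of 0.32 (adjusted p 0.0503) and the calmodulin-like gene CML43 one of 0.93 (adjusted p 0.0638), both with all dexamethasone arrays above all mock arrays. Such a separation was found for 5 of the 9 measured neighbours, these genes and TPP2, AT4G20810 and AT4G20790 on chromosome 4. Over all 17504 probe sets it was found for 3387. AT5G44345 and AT5G44350 had differences of 0.04 and -0.10, with adjusted p of 0.924 and 0.893. On chromosome 4, TPP2, for a large peptidase, lies between AT4G20840 and AT4G20860 and had a log2 difference of 0.31 (adjusted p 0.0685). AT4G20810, for a subunit of the general transcription factor TFIIE, rose by a log2 difference of 0.64 (adjusted p 0.0481). It was dim on 5 arrays, all but dexamethasone replicate 1, so the difference is approximate. The call was lost under 10 of the alternatives, the replicate block and 4 fits without 1 array among them. AT4G20790 had 0.29 (adjusted p 0.198). In all, 9 neighbours outside the family were measured, and 1 rose and none fell, where 9.04% of all probe sets rose and 9.54% fell. With 9 genes nothing is read from these counts. Without adjustment, p was under 0.05 for CML43, AT5G44450 and TPP2 as well, each higher with dexamethasone.

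**Figure D2:**
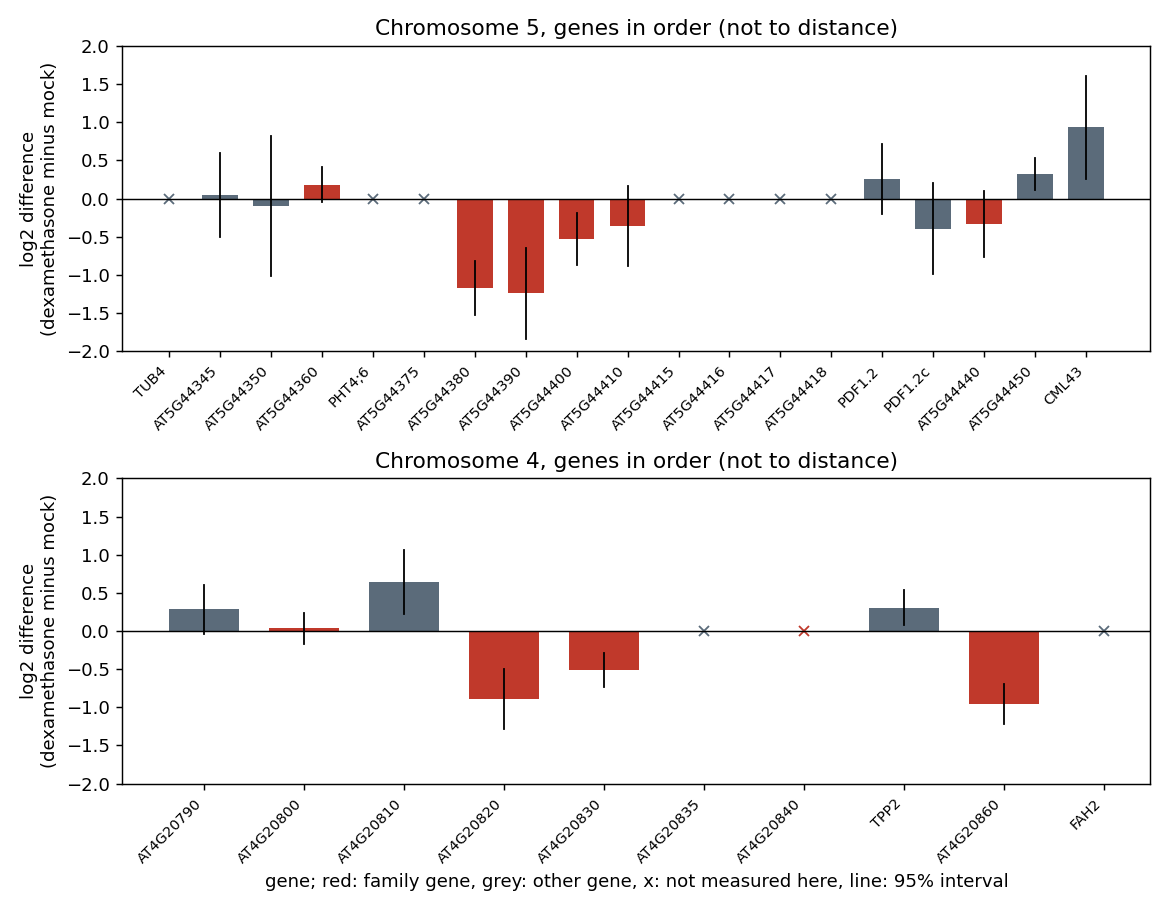
Log2 difference, dexamethasone minus mock, of genes in their order on chromosome 5 (top) and chromosome 4 (bottom), with red bars for berberine bridge enzyme-like genes, grey bars for other genes, crosses for genes not measured here and lines for 95% intervals. The lowest bars are AT5G44380 (-1.17), AT5G44390 (-1.24), AT4G20860 (-0.96) and AT4G20820 (-0.89), and most measured neighbours lie at or above 0.

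Another 17 loci of the family in Arabidopsis were looked up, and 16 had a probe set of their own, all but AT1G01980. Among these 16, 5 fell, 2 rose and 9 did not pass, where 9.54% of all probe sets fell and 9.04% rose. Their median log2 difference was -0.18. The 5 were AT1G30700, AT1G30720, AT1G30730, AT1G30760 and AT4G20820. Over both groups of loci, 24 genes were measured, of which 10 fell, 2 rose and 12 did not pass, with a median of -0.35. No test was made of the family against other genes.

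The falls outside the list lay mainly in the chromosome 1 run AT1G30700 to AT1G30760, where 4 of 6 measured genes fell. Over all probe sets 9.54% fell. The run was named with these calls known, so nothing is read from this count. AT1G30720 had values of 8.61, 8.44 and 8.53 with mock and 7.40, 7.45 and 7.34 with dexamethasone. Both groups are tight and lie 0.99 apart at their nearest arrays. It was 2.19-fold lower (log2 difference -1.13, SE 0.09, adjusted p 6.39e-04), the smallest adjusted p of the 24 genes. AT1G30700 had 6.46, 6.66 and 6.47 with mock and 5.21, 5.58 and 5.69 with dexamethasone, 2.06-fold lower (adjusted p 0.00423).

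AT1G30730 had 4.29, 3.53 and 4.42 with mock and 2.96, 3.12 and 3.00 with dexamethasone, 2.08-fold lower (adjusted p 0.0199), a fold that is approximate because dexamethasone replicate 3 is dim. Mock replicate 2 lies nearer to the dexamethasone arrays than the other mock arrays do. Its call was lost without mock replicate 1 (adjusted p 0.0703), mock replicate 3 (0.0574), dexamethasone replicate 1 (0.0615) or dexamethasone replicate 3 (0.0545). AT1G30760, which like AT2G34790 oxidises monolignols, had 5.28, 5.54 and 5.41 with mock and 4.76, 4.48 and 4.81 with dexamethasone. The groups do not overlap, and it was 1.66-fold lower (log2 difference -0.73, SE 0.13, adjusted p 0.00958). The other genes of this run, AT1G30710 and AT1G30740, were dim on all arrays and did not pass (0.39 and -0.20).

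AT4G20820, next to AT4G20830 on chromosome 4, had 4.82, 4.84 and 5.24 with mock and 3.80, 4.20 and 4.25 with dexamethasone. It was 1.85-fold lower (log2 difference -0.89, SE 0.17, adjusted p 0.0130), and its groups do not overlap. AT4G20800, separated from AT4G20820 by AT4G20810, read 1.65 on 5 arrays and 1.75 on dexamethasone replicate 2. It was dim on all 6 arrays and did not pass (adjusted p 0.825).

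AT2G34810 went the other way. Its values were 6.99, 6.88 and 6.98 with mock and 7.57, 7.46 and 7.50 with dexamethasone, and every dexamethasone array lay above every mock array. It rose 1.47-fold (log2 difference 0.56, SE 0.09, adjusted p 0.00654). AT1G26400 rose as well, by a log2 difference of 0.55 (SE 0.15, adjusted p 0.0411), but all its values are dim, from 1.69 to 2.61, and the call was lost without any single array except dexamethasone replicate 2. It belongs to the chromosome 1 run AT1G26380 to AT1G26420, whose other 4 measured genes did not pass.

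In that run AT1G26380 (FOX1), an enzyme of a cyanogenic indole pathway of pathogen defence, had dim values from 1.89 to 2.39 and a log2 difference of 0.24 (adjusted p 0.189). AT1G26390 had 0.26 (adjusted p 0.258) and AT1G26410 had -0.15 (adjusted p 0.578), and both were dim on all 6 arrays. AT1G26420 had -0.48 (adjusted p 0.0979), and its groups overlapped by 1 array, dexamethasone replicate 3. Without that array its log2 difference was -0.67 and passed. All 3 dexamethasone arrays are dim for AT1G26420, so its differences are approximate. AT1G11770 (OGOX3), a further oxidase of pectin fragments, had 0.21 with an adjusted p of 0.615, and AT1G34575 had -0.27 with an adjusted p of 0.380.

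**Figure D3:**
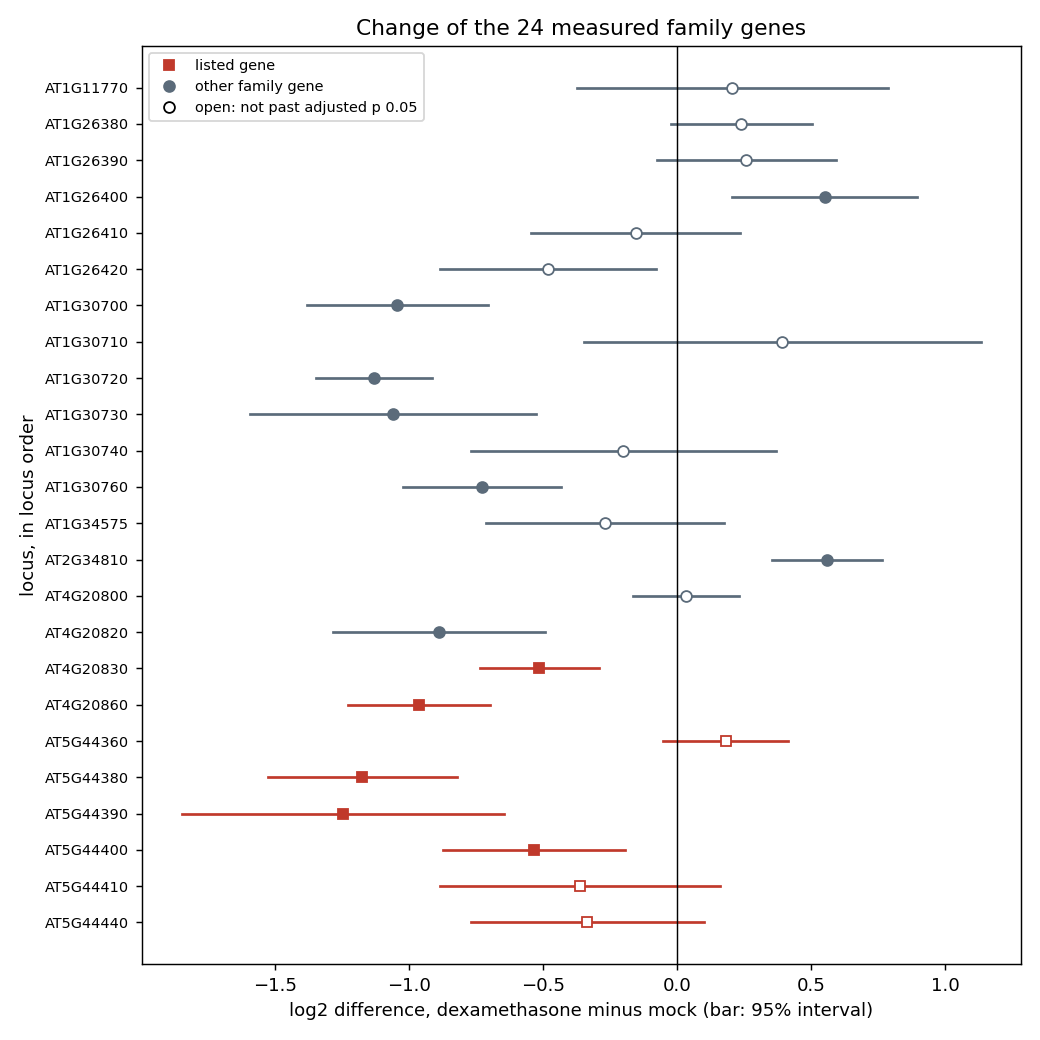
Log2 difference, dexamethasone minus mock, of the 24 measured family genes in locus order, with 95% intervals from limma, red squares for the listed genes and grey circles for the others; open symbols did not pass an adjusted p of 0.05. Filled symbols lie left of 0 for 10 genes and right of 0 for AT1G26400 and AT2G34810.

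Of the 24 family genes, 8 were dim on all 6 arrays, and among them AT1G26400 alone passed. Over all probe sets 3128 were dim on all 6 arrays, and 1.69% of these passed, 45 higher and 8 lower with dexamethasone. The median log2 difference of these dim probe sets was 0.07, so small rises of dim genes were common. Of the other 16 family genes, 10 fell, AT2G34810 rose and 5 did not pass, with a median log2 difference of -0.63. Of the other 14376 probe sets 22.3% passed and 11.6% fell, with a median of 0.00223. This split was made after the values were seen, and 5 of the 10 genes that fell belong to the list, so no test was made of it.

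**Figure D4:**
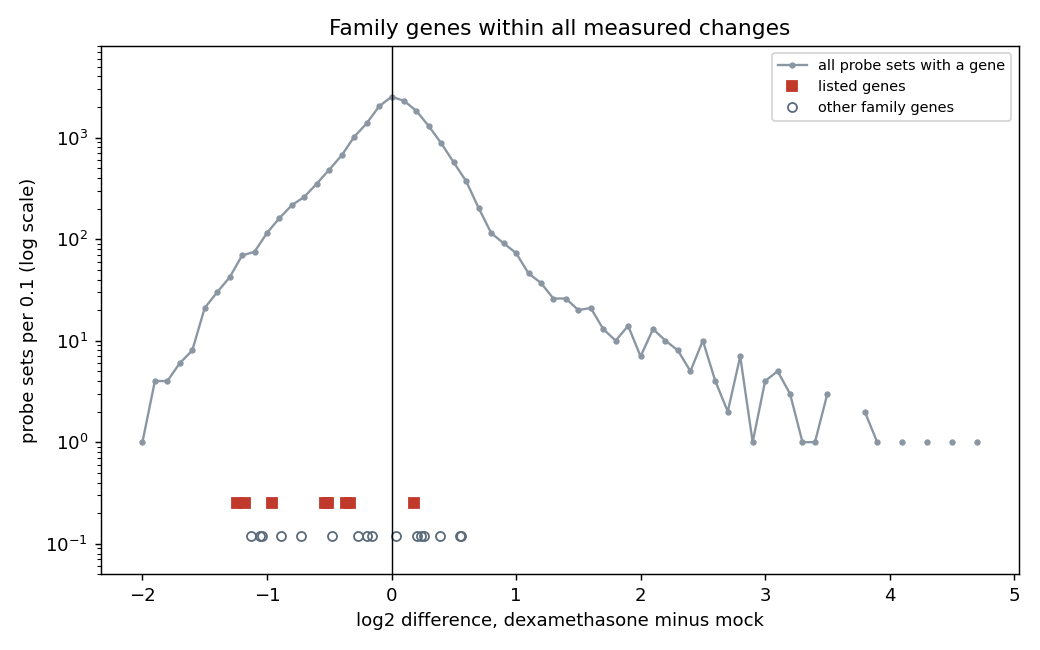
Number of probe sets per 0.1 of log2 difference, dexamethasone minus mock, on a log scale (dots joined by a line, with no dot where there are none, all 17504 probe sets with a gene), with the differences of the 8 listed genes (red squares) and the 16 other family genes (open circles) marked below at arbitrary height. The listed genes run from -1.24 to 0.18 and the others from -1.13 to 0.56, while all probe sets run from -2.02 to 4.72.

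Enzymes that act beside the family were scarcely covered by the probe table. Of 19 genes of monolignol synthesis, which makes the substrates of AT2G34790 and AT1G30760, 2 had a probe set of their own. CCR2, a cinnamoyl-CoA reductase gene, had 3.68, 3.60 and 3.75 with mock and 2.60, 2.97 and 2.76 with dexamethasone, and fell by a log2 difference of -0.90 (SE 0.12, adjusted p 0.00349). Dexamethasone replicates 1 and 3 are dim for CCR2, so the corresponding fold of 1.87 is approximate. HCT, for a shikimate hydroxycinnamoyl transferase, differed by -0.14 (adjusted p 0.357). None of 9 genes of the oligogalacturonide response and none of 7 of the indole carbonyl nitrile and camalexin pathways had a probe set of its own in the probe table. Probe sets without a gene there were not assigned, so these genes may still be on the array.

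The genes outside the family whose values over the 6 arrays were most like those of AT5G44390 were AT5G42690, LigB (AT4G15093), AT3G26760, AT5G48690 and AT5G01090, with Pearson correlations from 0.9949 to 0.9960 over 6 arrays. All arrays of a group share their treatment, so such values reflect the difference between groups as well as the order within them. The genes were picked on these same arrays as the highest correlations with the member of the largest difference. Lower values with dexamethasone therefore follow from the choice, and their calls are given only as a description. Of these genes AT5G42690 fell 2.00-fold (adjusted p 0.0134), AT5G48690 fell 1.58-fold (adjusted p 0.0289) and AT3G26760 fell 1.48-fold (adjusted p 0.0458), while LigB (-0.41, adjusted p 0.0575) and AT5G01090 (-0.19, adjusted p 0.191) did not pass. The calls of AT5G48690 and AT3G26760 were each lost in 4 of the 6 fits with 1 array left out, with the replicate block (adjusted p 0.0769 and 0.102) and with all probe sets (0.0542 and 0.0787), and that of AT5G42690 without mock replicate 1. Within the family the value nearest to AT5G44390 was that of AT1G30730, at 0.968.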

How the data were processed

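Per the labels' protocols, biotin-labelled total RNA of whole seedlings was hybridised to 6 arrays, 3 mock and 3 dexamethasone. The authors deposited log2 probe set values, and per the submitters' processing notes the tools were RMA and limma 3.24.15, with no role stated for either. The genome build was not given in the sources used here, so coordinates are left out.

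The probe table pairs 17504 of 38408 probe sets with a gene, 16746 of them with 1 gene. Loci, gene order and symbols come from the RefSeq table of TAIR10.1, by gene ID. Groups were compared as dexamethasone minus mock with limma 3.58.1 in R 4.3.3 (lmFit, eBayes), on the deposited values, two-sided, with Benjamini-Hochberg adjustment over all 17504. The code was tested on simulated data. Intervals are 95% intervals from the moderated SE. The number of arrays limits the precision. Cross-hybridisation between similar genes was not checked. The probe set of PLT2 was not analysed here.

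The members, the lists and the rule for named genes were chosen with earlier results of these data known. The rule took every measured family locus and neighbour, up to 4 genes of each other list, and the 5 genes most like the member with the largest difference. RCA and EXPA7 were looked up outside this rule. Alternatives were a replicate block, quantile normalization, median centring, leaving out the 30% dimmest probe sets, eBayes with a trend or robust, array weights, all probe sets, an adjusted p of 0.01 and leaving out each array.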

Additional observations from a re-analysis of the deposited data

How the results depend on the processing

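Of the listed genes, 5 fell and none rose. With an adjusted p of 0.01 2 fell, and with 1 array left out 3 (without mock replicate 1, mock replicate 3 or dexamethasone replicate 3) to 4 fell. With the replicate number as a block 4 fell, AT5G44390 being lost (adjusted p 0.0524). With an intensity trend (0.0758) or all probe sets (0.0737) AT5G44400 was lost. None rose in any alternative, and the median of the listed genes stayed between -0.58 and -0.47. Over all named probe sets, 3252 passed, 1205 with an adjusted p of 0.01, 2417 with the block and 1724 to 2477 with 1 array left out, lowest without mock replicate 1. With all probe sets 2416 of them passed, with robust eBayes 3153 and with median centring 3227. More passed with quantile normalization (3328), array weights (3410), without the 30% dimmest probe sets (3996) and with the intensity trend (4348).

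Alternatives for genes outside the list were added after the data were seen. Among other family genes 2 rose, and 1 rose with an adjusted p of 0.01, with all probe sets, without the dimmest probe sets (AT1G26400 was not tested there) and in 5 of the 6 fits without 1 array (range 1 to 2). There 5 fell, 3 with an adjusted p of 0.01, 6 with quantile normalization, and 4 to 5 with 1 array left out. Signs that turned were all of genes that did not pass: AT1G11770 without dexamethasone replicate 3 (-0.00821 to 0.39 without 1 array), AT4G20800 with quantile normalization (-0.0207), AT5G44345 with quantile normalization (-0.0416), array weights (-0.000152), without mock replicate 2 and without dexamethasone replicate 3 (-0.17 to 0.16 without 1 array), and AT5G44350 without mock replicate 1 and without dexamethasone replicate 1 (-0.41 to 0.28 without 1 array). Of genes outside the family that did not pass, CML43 passed with the block (0.0327), AT5G44450 with array weights (0.0459), LigB with quantile normalization (0.0470) and without mock replicate 2 (0.0498). With the dim filter and the trend CML43 (0.0401, 0.0111), AT5G44450 (0.0239, 0.00518), LigB (0.0315, 0.0163) and TPP2 (0.0349, 0.00651) passed. In the family AT1G26420 passed with quantile normalization (0.0377). The cause of these changes was not tested. Same-numbered arrays had correlations of deviations from their group means of -0.0099, -0.0163 and 0.0305, so no pairing by number was seen.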
